A study of Homo sapiens with 8 samples.

Results

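The subject is the m6A regions listed only after bacterial treatment. HCT116 is a line of human colorectal carcinoma cells. The cells received either Fusobacterium nucleatum (F. nucleatum, FUSO in the labels) or PBS (Control). Per the study's methods the cells met the bacterium at a multiplicity of infection of 100:1 for 2 h, so all values describe 1 cell line at 1 early time point. To map m6A, fragments of polyadenylated RNA were enriched with an m6A antibody (IP) and sequenced along with fragments that had not been enriched (input), giving 2 IP and 2 input libraries per treatment. The study's methods call the 2 replicates of a treatment biological. Neither they nor the labels say whether these were separate cultures, so the p-values from the input libraries measure only the spread between these libraries. The 4 peak lists, 1 per replicate, were merged into 22001 union regions wherever exon blocks on the same strand shared at least 1 bp. A gained region had a peak in both F. nucleatum lists and in neither Control list, and 524 of the 22001 regions (2.38%) were chosen by that rule. They carried 514 gene names. Each peak carries 1 value, read as the authors' p and called its score here, where a lower score is a stronger peak. The scores are a description with no test, and those of replicate 1 are given before those of replicate 2. A missing Control peak says only that none was listed there, since the lists hold no value for places without a peak.

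N6-methyladenosine (m6A) is a methyl mark on adenosines inside mRNA. A complex of METTL3 and METTL14 writes it, with partners such as RBM15 that guide the complex to RNA, and the demethylases FTO and ALKBH5 can remove it. Reader proteins of the YTH and IGF2BP families bind marked transcripts and affect their decay, translation or stability. The mark lies mostly within the DRACH consensus (A, G or T, then A or G, then AC, then A, C or T), of which GGAC is a frequent core, and it is known to be dense near stop codons, in 3′UTRs and in long internal exons.

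The lists held 17039 to 18365 peaks, the highest score in a list was 0.011 to 0.012, and read depth was unknown. The epithelial markers EPCAM, KRT8, KRT18, KRT19, CDH1 and CLDN7 lay between 11.9 and 2290 FPKM in the input libraries, whereas VIL1 was listed at 0 in 3 of 4 libraries and at 0.018 in the other. FPKM are fragments scaled by transcript length and by the total of mapped fragments. Markers of leukocytes (PTPRC, CD3E, CD14 and MS4A1) did not exceed 0.216 FPKM, and those of endothelium did not exceed 0.123. Of the fibroblast markers, DCN was listed at 0 in all 4 libraries and COL1A1 lay between 3.78 and 5.72.

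The following windows show a GGAC or DRACH match inside gained regions of genes on which the results below turn. In AJUBA a G follows the marked GGAC, so that site is not a DRACH match, though the region held 5 others. Each is read 5′ to 3′ on the gene's strand from GRCh37 (hg19), is spliced where the region is, and has in capitals the GGAC nearest to the middle of the region, or a DRACH match where there was no GGAC. The BIRC3 window, in coding sequence (CDS), is chr11:102196294-102198840 on the plus strand and crosses 1 exon junction. The other windows cross none. In CDS also lie the windows of TNFAIP2 (chr14:103592805-103592829, plus), ITGB1 (chr10:33200890-33200950, minus), FTO (chr16:53860183-53860236, plus) and TCF7L2 (chr10:114710517-114710577, plus). Near a stop codon lie those of MAT2A (chr2:85770843-85770867, plus) and RPS4X (chrX:71492524-71492548, minus), in a 3′UTR those of CD83 (chr6:14136660-14136684, plus), IGF2BP3 (chr7:23350849-23350873, minus) and NF2 (chr22:30093359-30093383, plus), and in a 5′UTR that of AJUBA (chr14:23451651-23451675, minus).
BIRC3: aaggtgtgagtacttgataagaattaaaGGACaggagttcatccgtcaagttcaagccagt
TNFAIP2: cctcctctgaGGACctggtgccacc
ITGB1: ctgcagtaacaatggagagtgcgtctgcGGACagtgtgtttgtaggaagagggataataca
FTO: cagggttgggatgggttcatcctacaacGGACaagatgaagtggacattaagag
TCF7L2: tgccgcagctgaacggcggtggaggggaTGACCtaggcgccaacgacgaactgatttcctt
MAT2A: actttggtagGGACagcttcccatg
RPS4X: actggcggccAAACAgagcagtggg
CD83: tccaagatatGGACacacgggagcc
IGF2BP3: cagaccaatgGGACagtcatagatg
NF2: gggaactgcaGGACcttgctcagcc
AJUBA: atgcgcggggGGACgcagcccctcc

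Most gained regions were short and weakly ranked, and a few stood far out. The score ran from 4e-63 to 0.0078 in F. nucleatum 1, with a median of 0.000205, and from 1e-107 to 0.0087 in F. nucleatum 2, with a median of 0.00035. The score was lower in the first list for 288 regions, lower in the second for 231 and equal for 5. Both scores were at most 1e-10 in 6 regions, at most 1e-05 in 52 and at most 0.001 in 274. The median of the weaker of both scores was 0.00098, whereas it was 3.2e-14 for the 11341 regions found in all 4 lists. Just inside the listing limit lay regions of FOXN3 (0.0023 and 0.0087), LOC730098 (0.0043 and 0.0085) and FAM129B (0.0014 and 0.0081). On the other side of the rule, 1206 regions had a peak in both F. nucleatum lists and in 1 Control list. Among them the weakest Control peaks were in ARSJ (score of 0.011), MAP3K1 (score of 0.01) and SLC35E2B (score of 0.0093).

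**Figure D1:**
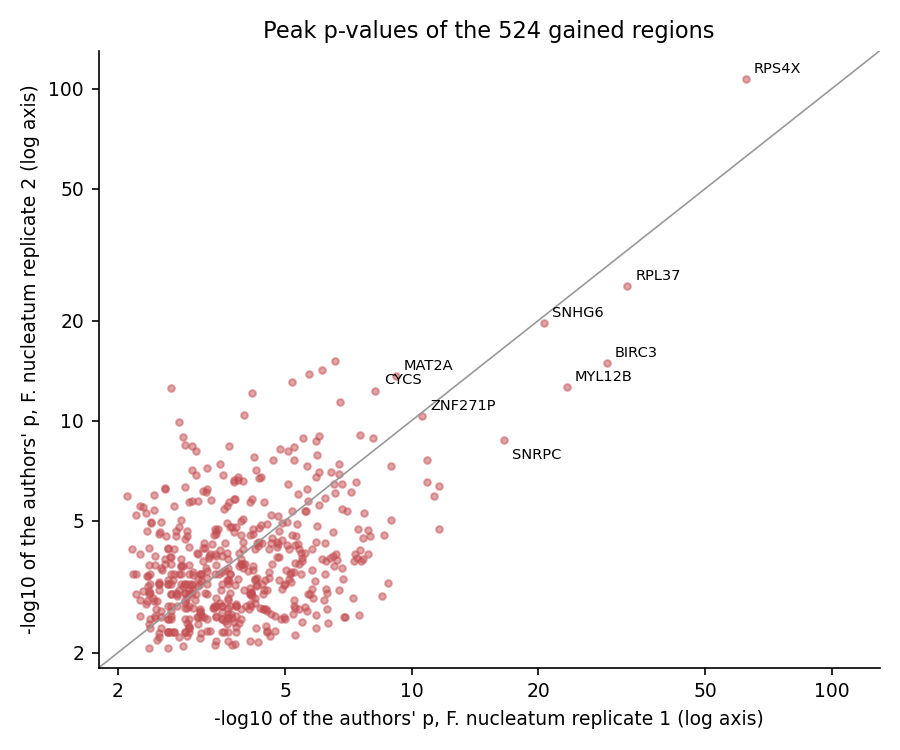
The authors' p of the 524 gained regions, as −log10 on log axes, in F. nucleatum replicate 1 (horizontal) and replicate 2 (vertical). The line marks equal values and the 9 regions with the lowest weaker p are named. RPS4X stands alone at the upper right, and most regions crowd the lower left corner, near the listing limit of both lists.

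The strongest gained region lay in RPS4X, a protein of the small ribosomal subunit. It covered 150 nt at chrX:71492453-71492602 near the stop codon, with scores of 4e-63 and 1e-107, and it was the only region of the gene in any list. RPS4X mRNA reached 2560 and 2390 FPKM in the Control inputs against 2450 and 2490 in the treated ones. The groups overlapped, and the log2 fold change was -0.00 ± 0.053 (SE, limma adjusted p = 0.985).

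The second lay in RPL37, of the large ribosomal subunit, at chr5:40832525-40832644 near the stop codon (scores of 2.5e-33 and 4e-26), also as the gene's only region. Its 120 nt held neither GGAC nor a DRACH match. RPL37 reached 773 and 723 FPKM without and 678 and 697 with the bacterium, a log2 change of -0.12 ± 0.054 (SE, limma adjusted p = 0.399). Control was the higher group without overlap, and the difference did not pass the test. The third lay in SNHG6, a lncRNA that hosts snoRNAs, at chr8:67834165-67834580 (scores of 2.5e-21 and 2e-20), with no other region in the gene and no FPKM in the table.

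The region of BIRC3, an inhibitor of apoptosis and ubiquitin ligase of NF-κB signalling, came next. It spanned 5 exon blocks and 659 nt of CDS at chr11:102196229-102206916, held 2 GGAC and 18 DRACH matches, and had scores of 7.9e-30 and 1.3e-15. No gained region was longer, and MBD5, a methyl-CpG-binding domain protein, had one of the same length. A neighbouring BIRC3 region of 958 nt, 89 nt away on the transcript, had peaks in both F. nucleatum lists (scores of 7.9e-36 and 4e-25) and 1 weak peak in Control 2 (score of 0.006). In MYL12B, a regulatory light chain of myosin, the gained region was at chr18:3277870-3278076 near the stop codon (scores of 4e-24 and 2.5e-13). Its other region was listed only in F. nucleatum 2 (score of 3.2e-26).

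The remaining 7 of the 12 strongest were of several kinds. SNRPC, a protein of the U1 snRNP, had a single region (scores of 2.5e-17 and 1.9e-09). MAT2A, which makes S-adenosylmethionine, the methyl donor of m6A, had a gained region at chr2:85770826-85771005 (scores of 6.8e-10 and 2.5e-14), 504 nt upstream of a region found in all 4 lists. CYCS, which encodes cytochrome c, gained a region in the 3′UTR (scores of 6.3e-09 and 5e-13). The others were in the pseudogene ZNF271P, the lncRNAs LINC01184 and MBNL1-AS1, and RPL36A, another protein of the large subunit, whose 60 nt held no DRACH match. CYCS, ZNF271P and RPL36A each also had a region in all 4 lists. Its Control scores were 0 and 0 in CYCS, 5e-82 and 5e-80 in ZNF271P, and 4e-21 and 2.5e-18 in RPL36A. Another region of LINC01184 had a peak in Control 2 (score of 0.0054). Opposite the MBNL1-AS1 region, on the other strand, a Control 2 peak of MBNL1 had a score of 6.3e-50. In all, 5 gained regions lay opposite a Control peak. Whether the libraries kept strand is not given in the sources used here, and without it the reads of a gene and its antisense partner cannot be told apart. Ribosomal protein genes and CYCS are known to have many near-identical processed pseudogenes, so how their reads were assigned is uncertain.

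Of the 12 strongest, 8 had FPKM, and of these only BIRC3 passed the expression test. MAT2A was at 173 and 217 FPKM in Control and 209 and 203 after treatment. CYCS was at 66.2 and 63 against 62.7 and 62.2, and SNRPC at 162 and 156 against 155 and 158. In bulk RNA, fewer cells with a transcript and less of it per cell cannot be told apart.

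The second question was where the gained regions lay. Of the 524, 441 could be placed with at least 90% of their bases on a canonical coding transcript. The midpoint was in the 3′UTR in 200 (45.4%), in CDS in 158 (35.8%), within 100 nt of the stop codon in 65 (14.7%) and in the 5′UTR in 18 (4.08%). Among 453 placed regions found in both Control lists and neither F. nucleatum list, called Control-only, the shares were 20.1% in the 3′UTR, 56.5% in CDS, 9.49% near the stop codon and 13.9% in the 5′UTR. Among 9733 placed regions of all 4 lists they were 34.2%, 44.1%, 19.6% and 2.18%. A high 3′UTR share was not particular to gained regions. It was 52.3% in regions listed in Control 1 and both F. nucleatum lists but not in Control 2. Regions listed in Control 1 and F. nucleatum 2 alone had 46%. Where Control 2 and both F. nucleatum lists had a peak but Control 1 had none, it was 30.3%. Gained regions lay over 500 nt past the stop codon in 31.5% of cases, against 13% of Control-only regions and 15.2% of those in all 4 lists. These shares are descriptions and their differences were not tested, since the regions of a list come from the same libraries.

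Base composition also differed between these groups of regions. The median GC content was 45% in gained regions (quartiles 38.6% and 53.2%), 50.3% in regions of all 4 lists and 61.7% in Control-only regions. Regions listed in a single library followed the same order, with medians of 48.1% and 49.2% in the F. nucleatum lists and 57.4% and 59% in the Control lists. Over all peaks of a list the median GC was 51.5% and 51.8% for Control, whereas the treated lists had 50.3% and 50%, so the groups did not overlap. The part of base composition in the choice of these regions was not tested.

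Gained regions were also short, with a median of 181 nt (quartiles 150 and 240, range 60 to 659) against 595 nt for regions of all 4 lists and 210 nt for Control-only regions. They lay in 1 exon block in 393 cases (75%). GGAC, searched on the transcript strand, was present in 288 gained regions (55%), against 70.7% of Control-only regions and 90% of the longer regions in all 4 lists. DRACH was present in 509 (97.1%), a share of little use at this length since 94.8% of all union regions held it. A GGAC followed by A, C or T is also a DRACH match.

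Among regions of 100 to 200 nt it was 48.3% of 230 gained regions, 60.1% of 233 Control-only regions, 61.3% of 217 regions in all 4 lists and 54.1% of all 3988 union regions. With GC content also held to 40 to 50%, it was 46.4% of 69 gained regions, 59.5% of 42 Control-only regions, 57.4% of 47 in all 4 lists and 46% of 972 union regions. At 50 to 60% GC it was 59.7% of 62 gained regions, 51.8% of 56 Control-only regions, 78.4% of 74 in all 4 lists and 61.1% of 1079 union regions. In the same order it was 34.9% of 63, 43.8% of 16, 36.7% of 30 and 35.3% of 563 at 30 to 40% GC. At 60 to 70% GC it was 60% of 20, 76.3% of 59, 54.8% of 42 and 64.5% of 858. The gained share thus lay near that of all union regions up to 60% GC and below it at 60 to 70%. It was above that of regions in all 4 lists only at 60 to 70% GC. Above that of Control-only regions it lay only at 50 to 60% GC, and no difference was tested. GGAC was present in 46.2% of the 52 regions with both scores at most 1e-05, in 59.5% of the next 222 up to 0.001, and in 52.8% of the other 250, so the share showed no steady order with the score.

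The third question was what else was marked in the same gene. In 285 of 524 cases (54.4%) the gene also had a region in all 4 lists, and in 83 more (15.8%) it had another region with a Control peak. Together 70.2% of gained regions were therefore in genes already listed in Control. The other 156 (29.8%) were in genes with no peak in either Control list, 118 (22.5%) as the only region of the gene and 38 (7.25%) beside other F. nucleatum regions. Among the 52 regions with both scores at most 1e-05, genes with no Control peak made up 46.2%. By gene, 153 of the 514 members had no Control peak, whereas 10444 of all 11155 genes with a peak had one. The rule itself asks for a region without a Control peak in each member, so these gene counts are not alike.

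Some gained regions lay close to a region that Control also had. For 295 of them the nearest region with a Control peak was on the same transcript, at a median gap of 389 nt (quartiles 148.5 and 1060), and the gap was under 100 nt in 54 (18.3%). The smallest gap was 28 nt, in ZNF117, and 14 regions shared the next, 29 nt. Among these were regions of BTG1, an antiproliferative factor, PCDHAC2, a protocadherin, and KMT2A, a histone H3 lysine 4 methyltransferase. Of 225 gained regions on a transcript with a region in all 4 lists, 140 lay 3′ of the nearest such region and 85 lay 5′ of it.

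More than 1 gained region was found under 17 gene names, of which ZNF117 and ERV3-1-ZNF117 share the same regions. KMT2A had 2 in CDS (scores of 0.0002 and 0.00095 at chr11:118344488-118344847, and 0.00012 and 0.003 at chr11:118342391-118342631) among 12 regions, of which 6 were in all 4 lists. STC2, a secreted glycoprotein, had 2 in its 3′UTR, on either side of a region in all 4 lists. NF2, the tumour suppressor merlin upstream of Hippo signalling, had 1 at chr22:30093300-30093480 in the 3′UTR (scores of 0.0016 and 1.7e-05) and 1 at chr22:30077479-30079137 (scores of 5.9e-06 and 0.0024), beside 1 region in all 4 lists. A further NF2 region in CDS had peaks in both Control lists (scores of 1.3e-10 and 4.2e-08) and in F. nucleatum 2 alone of the treated lists (score of 2.4e-05). ELK3, an ETS factor, had 1 near the stop codon (scores of 8.5e-06 and 8.3e-09) and 1 in the 3′UTR. SAMD4A, an RNA-binding repressor of translation, had 2 in the 3′UTR.

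For 6 of the 17 gene names the gained regions were the only regions listed. TIMMDC1, a factor for respiratory complex I assembly, had scores of 5e-12 and 1.2e-06 at chr3:119217368-119217545 and 0.0026 and 5.8e-07 at its other region. KNTC1, a kinetochore protein, had 1 in CDS and 1 at the stop codon, and the others were ISCU of iron-sulphur cluster assembly, RSRP1, BLOC1S6 and TPST2. None of the 6 passed the expression test. RSRP1 came to 7.19 and 11 FPKM in Control and 12 and 13.4 after treatment (limma adjusted p = 0.367). The remaining names were ABI2, AKAP13, MAML3, NSUN3, ZNF117 and ERV3-1-ZNF117, the last a further name on the ZNF117 regions.

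The median gained region had 1 other region in its gene, and 35 had at least 5.

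In 25 genes a gained and a Control-only region occurred together. TIMP2, an inhibitor of metalloproteinases, gained 240 nt in the 3′UTR (scores of 3e-06 and 1.4e-09) and had a Control-only region in the 5′UTR (scores of 1.1e-08 and 2e-14). The 3′UTR of TIMP2 also held Control peaks in other regions, in Control 1 (score of 1.9e-07) and Control 2 (score of 0.00069). STAT6, the transcription factor of interleukin-4 signalling, had a 3′UTR gain (scores of 2.6e-09 and 3.1e-05) and a Control-only 5′UTR region (scores of 0.00029 and 0.0022). Its 3′UTR also held a region in all 4 lists, with Control scores of 6.3e-73 and 5e-63. FZD4, a Wnt receptor, gained a 3′UTR region (scores of 0.00014 and 2.3e-07), and its Control-only region was in CDS. Another 3′UTR region of FZD4 was listed in Control 2 alone (score of 0.0026). ASPH and TSPYL2 were the other 2 of the 5 strongest such genes. None of the 5 passed the expression test.

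The fourth question was whether the genes of gained regions changed in expression. Of 514 gene names, 482 had FPKM and 417 of these were tested, since their FPKM averaged 1 or more across the inputs. The 32 without FPKM included 20 of the 21 lncRNAs. The input libraries also served as the background of the peak calls, so expression is not independent of the rule, and the counts are read only beside those of all genes. In limma, 3 of the 417 (0.719%) were called higher, against 0.667% of all 11088 genes tested, and 1 (0.24%) was called lower, against 0.135%. Both F. nucleatum values lay above both Control values in 136 members (32.6%), against 26.1% of all genes, and below both in 65 (15.6%), against 21.1%. The median log2 fold change was 0.034 for members and 0.014 for all genes tested. The unadjusted p was under 0.05 in 61 of the 417 members and in 1496 of all 11088 genes tested. Counts at an unadjusted p in the gene lists below are to be read beside these numbers.

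**Figure D2:**
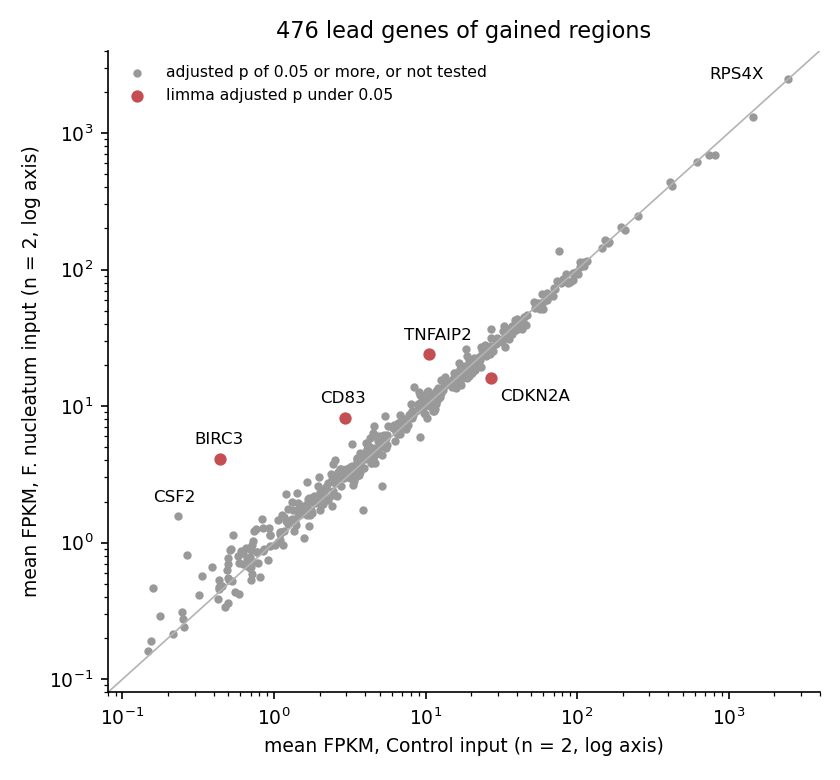
Mean FPKM in the 2 Control input libraries (horizontal) and the 2 F. nucleatum input libraries (vertical) for the 476 lead genes of gained regions with FPKM, on log axes. Points on the line have equal means. BIRC3, CD83 and TNFAIP2 lie above it and CDKN2A below it as the only 4 with a limma adjusted p under 0.05.

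BIRC3 rose from 0.429 and 0.449 FPKM in Control to 4.17 and 4.08 after treatment. The groups were far apart, and the log2 fold change, on the log2(FPKM + 1) scale used throughout, was 1.83 ± 0.09 (SE, limma adjusted p = 0.00183). With 0.1 in place of 1 added to the FPKM it was 2.97. The Control mean of 0.439 FPKM was under the filter, so BIRC3 entered the test only through its treated level of 4.12, and any gene that does so has to differ. The Control mean was under 1 FPKM in 7 of the 417 tested members, of which BIRC3 was the 1 called higher, and the treated mean was under 1 in 1, which was not called lower. The Control level is low, so the missing Control peaks and the low transcript level stood together in this gene, and the part of the level in the call was not tested.

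CD83, a surface protein of activated immune cells and an NF-κB target, rose from 2.86 and 3.03 FPKM to 7.74 and 8.7, a log2 change of 1.22 ± 0.091 (SE, limma adjusted p = 0.00852). Its gained region, chr6:14136525-14136822 in the 3′UTR (scores of 2.2e-06 and 0.001), lay 265 nt past a region of all 4 lists. That shared region scored 1e-07 and 2.2e-09 for Control, and after treatment 1.6e-46 and 1e-36. TNFAIP2, another gene induced by tumour necrosis factor, rose from 11.3 and 9.74 FPKM to 24.1 and 23.8, a log2 change of 1.12 ± 0.088 (SE, limma adjusted p = 0.00994). Its gained region was at chr14:103592694-103592962 in CDS (scores of 4.6e-05 and 2e-07), and a 3′UTR region was in all 4 lists. Another CDS region, 148 nt away on the transcript, was listed in Control 2 alone (score of 0.0011).

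CDKN2A, which encodes the cell cycle inhibitors p16 and p14ARF, was the member called lower. It was at 27.6 and 26.7 FPKM in Control and 16.9 and 15.2 after treatment, so the groups did not overlap, with a log2 change of -0.72 ± 0.075 (SE, limma adjusted p = 0.0238). Its gained region of 90 nt at chr9:21968018-21968107 in the 3′UTR (scores of 0.00098 and 0.00076) held no DRACH match. The only other region of the gene was in Control 2 alone (score of 0.00081). When F. nucleatum input library 1 or 2 was left out, CD83, TNFAIP2 and CDKN2A lost their calls, and BIRC3 did not. The log2 changes stayed near those of all libraries, at 1.30 and 1.15 for CD83, 1.11 and 1.12 for TNFAIP2, and -0.79 and -0.65 for CDKN2A. CDKN2A also lost its call without the filter on low values.

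Of the genes with no Control peak, many were well expressed without the bacterium. The 10 highest were RPS4X, FAU, RPL37, MYL12B, HNRNPK, SNRPC, PYCR1, BZW1, QARS and NUSAP1, with Control means of 2480 down to 83 FPKM, and none passed the test. FAU, a ubiquitin-like fusion to a ribosomal protein, was at 1510 and 1360 FPKM against 1300 and 1340. HNRNPK, an RNA-binding protein, was at 254 and 250 against 254 and 238, and its region was in the 3′UTR (scores of 0.00081 and 0.0001). BZW1, a translation regulator, had a region in the 3′UTR (scores of 2.6e-07 and 7.9e-16) at 111 and 111 FPKM against 116 and 109.

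At the other end were CSF2, FAM46C, CCM2L, PLXNA2 and ISL1, with Control means of 0.147 to 0.233 FPKM. CSF2, the cytokine GM-CSF, was at 0.105 and 0.361 FPKM in Control and 1.33 and 1.79 after treatment. The groups did not overlap, but its mean was under the filter and it was not tested. Its region, chr5:131411515-131411689 near the stop codon, had scores of 5.6e-06 and 0.0017. ISL1, a LIM homeobox factor, was at 0.124 and 0.17 against 0.111 and 0.211, where the groups overlapped.

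By expression level, gained regions were spread over the whole range. They occurred in 71 of 1016 genes with a peak and a Control mean under 1 FPKM (6.99%), in 158 of 2868 from 1 to 5 (5.51%), in 153 of 3731 from 5 to 20 (4.1%), in 80 of 2203 from 20 to 100 (3.63%) and in 20 of 443 at 100 or more (4.51%). The median Control level was 5.91 FPKM for member genes and 9.27 for genes with a region in all 4 lists. Where the gene had a Control peak but no region in all 4 lists, the median was 1.65 FPKM in Control and 1.84 after treatment.

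Of the pathway lists, the one for NF-κB factors and targets held 4 genes with a gained region among 31 with a peak (12.9%), against 4.61% of all 11155 genes with a peak. They were BIRC3, CD83, TNFAIP2 and TNFAIP8. TNFAIP8, an apoptosis regulator, was at 1.81 and 2.13 FPKM against 3.03 and 3.05, a log2 change of 0.45 ± 0.097 (SE, limma adjusted p = 0.191). Over the 35 tested genes of the list 17 were called higher and 0 lower by limma (26 and 1 at an unadjusted p under 0.05), and the median log2 fold change was 0.45 against 0.01 for all genes. Of the 35, 8 had a Control mean under 1 FPKM and so passed the filter only through the treated libraries, and all 8 were among the 17 called higher.

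The m6A machinery held 4 of 19 genes with a peak (21.1%), and 0 of its 21 tested genes passed the limma test in either direction, while 0 genes above and 1 gene below Control had an unadjusted p under 0.05. METTL14, the partner of METTL3, had a gained region at chr4:119606525-119606675 (scores of 0.00072 and 0.0021) that was not placed on the canonical transcript. Its main region was in all 4 lists. FTO, the demethylase, had a gained region at chr16:53860087-53860236 in CDS (scores of 0.00098 and 0.0006) and no Control peak. RBM15 gained a region in the 3′UTR (scores of 3.2e-05 and 0.002), as did the reader IGF2BP3 (scores of 0.00079 and 0.00011). METTL14 was at 10.3 and 11.6 FPKM in Control and 11.6 and 11.6 after treatment. FTO was at 4.01 and 4.48 against 4.61 and 4.38, and the groups overlapped.

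The Hippo list held 2 of 25 (8%), NF2 and AJUBA. NF2 was at 12.1 and 8.57 FPKM against 9.56 and 6.7, with overlapping groups. AJUBA, a LIM scaffold that restrains the LATS kinases, had its region in the 5′UTR (scores of 0.00038 and 0.0028) and was at 9.41 and 9.56 against 12.5 and 11.1 (limma adjusted p = 0.282). Of the 28 tested Hippo genes 2 were called higher and 0 lower by limma (7 and 1 at an unadjusted p under 0.05). They were the YAP targets CYR61 (0.90 on the log2 scale, limma adjusted p = 0.00664) and CTGF (0.70, limma adjusted p = 0.0325), named after their values were seen, and neither held a gained region. The Wnt list held 4 of 28 (14.3%), namely the receptor FZD4, the adaptor DVL3, the tankyrase TNKS2 and the transcription factor TCF7L2. TCF7L2 had its region in CDS (scores of 0.0016 and 0.00036), 89 nt from a region with a Control peak. In limma 0 of the 28 tested Wnt genes passed, while 0 genes above and 2 genes below Control had an unadjusted p under 0.05.

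Focal adhesion and actin genes held 3 of 40 (7.5%), the integrin ITGB1 and the myosins MYL12B and MYH10. ITGB1 had a CDS region (scores of 1.3e-08 and 2.1e-05) and was at 83.6 and 150 FPKM in Control and 121 and 111 after treatment, so the Control libraries alone spanned the treated values. Tight and adherens junctions held 1 of 20 (5%), AFDN, whose 3′UTR region had scores of 0.00087 and 8.1e-09. The p53 and cell cycle list held 1 of 25 (4%), CDKN2A. In limma 0 of the 43 tested focal adhesion genes and 0 of the 23 junction genes passed (7 and 4 above Control, 0 and 0 below, at an unadjusted p under 0.05), and of the 33 p53 and cell cycle genes CDKN1A, which has no gained region, was called higher and CDKN2A lower (2 and 2 at an unadjusted p under 0.05).

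**Figure D3:**
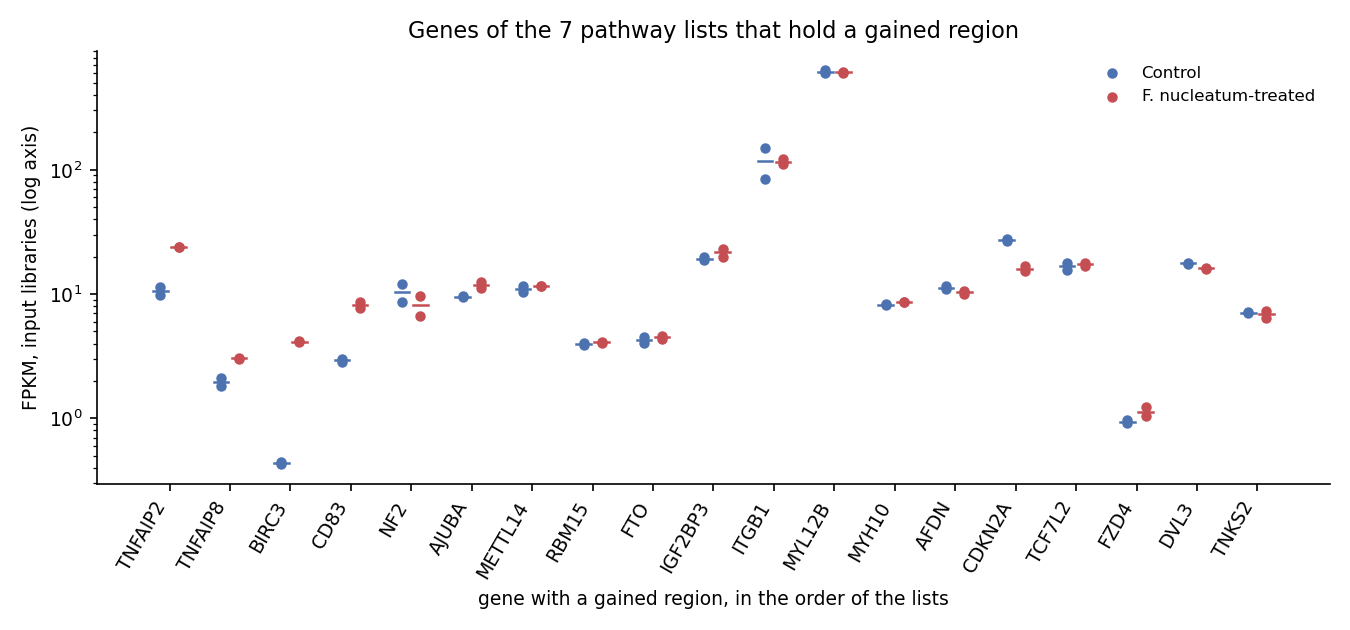
FPKM of the input libraries on a log axis for the genes of the 7 pathway lists with a gained region. Each dot is 1 library and each bar the mean of 2, Control on the left and F. nucleatum-treated on the right of a pair. BIRC3, CD83 and TNFAIP2 have both treated values far above both Control values and CDKN2A has them below, while the ITGB1 Control values lie on either side of the treated ones.

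Gene families, read from the symbols, are given by the share of their genes with a peak that held a gained region, with no test between them. snoRNA host genes held 4 of 13 (30.8%), SNHG3, SNHG6, SNHG9 and SNHG15, each as the only region of its gene. Genes with symbols of cytosolic ribosomal proteins, among them those of like genes such as RPL7L1, held 6 of the 32 with a peak (18.8%). They were FAU, RPL28, RPL36A, RPL37, RPL7L1 and RPS4X. None of the 6 passed the expression test, and the median log2 fold change of the 85 tested genes of that family was 0.00. Zinc-finger genes named ZNF held the most by number, 26 of 362 (7.18%), and the related ZBTB, ZSCAN, ZKSCAN and ZFP genes held 5 of 67 (7.46%). Histone methylases and demethylases held 3 of 32 (9.38%), KMT2A, SETD4 and SETD7. RBM, HNRNP and SRSF RNA-binding proteins held 6 of 68 (8.82%), including HNRNPK, HNRNPL and the splicing factor SRSF1, and RNA helicases held 3 of 47 (6.38%), DDX6, DDX60L and DHX29.

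Genes with symbols of the respiratory chain, which take in assembly factors such as NDUFAF6, held 3 of 54 (5.56%), NDUFAF6, NDUFB4 and UQCRB. Rab GTPases and TBC1D regulators held 3 of 78 (3.85%) and eIF and eEF translation factors 2 of 54 (3.7%). MAP kinase cascade genes held 1 of 30 (3.33%), solute carriers 6 of 188 (3.19%) and the RNF, TRIM, FBX and KLHL ligase families 5 of 160 (3.12%). The share was 2 of 78 (2.56%) in CCDC genes, 1 of 42 (2.38%) in ubiquitin-specific proteases, 1 of 61 (1.64%) in mitochondrial ribosomal proteins, 2 of 131 (1.53%) in TMEM genes and 0 of 27 in kinesins. In limma 0 of the 63 tested family genes with a gained region were called higher or lower. The unadjusted p was under 0.05 in 7 of the 63, against 1496 of all 11088 genes tested.

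Among lncRNAs, 21 gained regions were found. After SNHG6, LINC01184 and MBNL1-AS1 the strongest were in SNHG15 (scores of 7.8e-07 and 6.3e-15), SNHG9 (scores of 4.8e-05 and 6.5e-05) and MCPH1-AS1 (scores of 0.00014 and 1.7e-07). The longest gained regions after BIRC3 and MBD5 were 510 nt in the 3′UTR of OSMR, the oncostatin M receptor (scores of 5.6e-08 and 0.0012). OSMR was at 7.6 and 8.32 FPKM in Control and 9.13 and 8.47 after treatment (limma adjusted p = 0.528). The regions with the most exon blocks after BIRC3 were those of ASPH, with 5 blocks, and EHBP1, with 4.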

How the data were processed

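HCT116 cells gave 4 input and 4 IP libraries, 2 per treatment, grouped by their labels. The deposited peak lists, made by the authors 1 per replicate, were taken to compare the IP with its own input. Their only value per peak is a score, which was taken as a p-value that the authors' peak caller gave before any correction. The methods name MACS2, but the layout resembles exomePeak output, and the program was not settled. The deposited FPKM, made by the authors with StringTie from the input libraries, keep no read counts, so depth was unknown. The submitters' processing notes name Trim Galore 0.3.3, HISAT2 2.1.0 and hg19.

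Peaks were merged in Python 3.11.15 (merging was tested on simulated data). Genes, places and sequence came from GENCODE release 44 on GRCh37, with 1-based coordinates, and 13 of 514 gene names were not matched. A gene stands for the name of its strongest peak, and gene counts use all names. FPKM were compared with limma 3.58.1 in R 4.3.3 (eBayes with trend) on log2(FPKM + 1), a scale that understates changes of low genes, for 11088 genes, with Benjamini-Hochberg adjustment, also tested on simulated data. A count model was not usable on FPKM.

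The members, gene lists and naming rule were chosen with earlier results of these data known. Named were the 12 strongest regions, the called genes, genes with several gained regions, the 5 strongest with a Control-only region, the 10 highest and 5 lowest genes with no Control peak, the longest and most split regions, list members, 6 lncRNA regions, genes with most regions, and regions just inside or outside the rule. SE is the standard error. Results for 1 named gene and 1 gene family are not reported here.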

Additional observations from a re-analysis of the deposited data

How the results depend on the processing

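Merging only at a reciprocal overlap of 50% gave 822 gained regions in place of 524, with 87.5% in genes that also had a Control peak, 36.8% in the 3′UTR and 64.4% with GGAC. Keeping only peaks with p of at most 1e-05 in every list gave 303, with 54.8% in such genes and 72.6% with GGAC, and a limit of 0.001 gave 62.2% with GGAC. These limits also removed weaker Control peaks, so regions that had such a peak could then count as gained. Of the 524 regions, only 52 had both p at most 1e-05, and 46.2% of those held GGAC. With the class decided by the 5′ end, 40.6% lay in the 3′UTR. Merging by whole span, ignoring strand or asking for no Control peak within 100 bp gave 478 to 523 regions.

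Leaving out 1 peak list gave 917 to 2403 regions (917 without Control 1, 1386 without Control 2, 1727 without F. nucleatum 1 and 2403 without F. nucleatum 2), since a region then had to be present in, or absent from, fewer lists. The share in genes with a Control peak was then 69.7% to 77.4%, in the 3′UTR 36.5% to 47.9% and with GGAC 37.5% to 65.1%, highest without Control 2.

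Leaving out 1 input library gave 1 to 12 member genes called higher and 0 to 3 called lower in limma. These were 5 and 1 without Control 1, 12 and 3 without Control 2, 1 and 0 without F. nucleatum 1 and 1 and 0 without F. nucleatum 2, where the lone library is assumed to vary like the other group. At an unadjusted p under 0.05, 4 and 10 were lower without F. nucleatum 1 and 2. Without the filter on low values 0 were called lower (17 at an unadjusted p under 0.05). The replicate numbers did not pair the libraries (correlation of their differences 0.0243), and with the number as a block 3 genes were called higher and 1 lower, as without it. Over 55 named genes and 495 refits, 7 calls were lost, 2 appeared (ITGB1 and RSRP1 without Control 2) and 0 called genes changed direction. With 2 libraries per group and no read counts, small changes were not detectable, and a missing Control peak could not be weighed against depth.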
